A study of Mus musculus with 28 samples.

Results

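H3K27me3 islands that lay far from any coding gene 5′ end and were found in both A2a and D1 nuclei are described here. A member was an island of the A2a H3K27me3 list on chromosomes 1 to 19 that was shorter than 20 kb, overlapped an island of the D1 H3K27me3 list by at least 1 bp, and had its nearest edge at least 100 kb from the annotated 5′ end of every protein-coding gene of GENCODE vM21 on mm10 (GRCm38). The members were thus chosen by their H3K27me3 calls in both lists and by their length, and in all 13086 islands met the rule. They made up 21.7% of the 60191 A2a islands and 22.4% of the 58463 autosomal A2a islands under 20 kb, and both lists together held 105951 islands.

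The lists came from ICuRuS, in which tagged nuclei are captured by INTACT and their histone post-translational modifications (hPTMs) are mapped by CUT&RUN (CnR), a method that cuts and releases the chromatin under an antibody. A2a nuclei were from the striatum of adult Sun1-sfGFP;A2a-cre mice and D1 nuclei from that of adult Sun1-sfGFP;Drd1-cre mice, both on C57BL/6J, of both sexes, with no treatment. The nuclear tag is switched on wherever the Cre driver is or has been active, so the groups are Cre-defined medium spiny neuron (MSN) subtypes of the whole striatum. Of the 28 samples of the series, 8 entered the lists used here, 2 replicates for each of the 2 cell types and 2 marks, with the Active Motif antibody against H3K27me3 and the Abcam antibody against H3K4me3, and the other 20 were not analysed here. The source name of the D1 H3K27me3 samples reads A2a, whereas their title and cell type read D1, and they were taken as D1.

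Each list pools its replicates, so there was no spread between mice, no test across mice was possible, and every interval given covers counting error only. The A2a list held 22091634 reads in islands that covered 301 Mb, and the D1 list held 7878685 reads over 184 Mb. The mean was 73.4 reads per kb in A2a and 42.8 in D1, and reads were not normalized between the lists. By reads in islands, the H3K27me3 lists differed in the direction of the titles at the marker genes of the MSN subtypes. Within 2 kb of the 5′ end of Adora2a, the adenosine receptor gene that names A2a neurons, the A2a list had no island and the D1 list had an island of 4153 reads (92.3 reads per kb). At Drd1 the A2a list had an island of 1958 reads (117 reads per kb) and the D1 list an island of 86 reads (47.8 reads per kb). The D1 markers Pdyn and Tac1 had 117 and 150 reads per kb in A2a, and 50 and 43.2 in D1. The A2a markers Drd2 and Penk had islands in both lists, of 160 and 200 reads in A2a and 559 and 1365 in D1. By reads per kb Drd2 went the same way (61.54 in A2a, 71.67 in D1), but Penk did not (58.82 and 57.35). Markers of other cells of the tissue were not all absent, since H3K4me3 peaks lay at Mbp, a myelin gene, in both lists, and at Mog in the A2a list only, whereas neither list had a peak at the astrocyte genes Aqp4 and Gfap. The part of such cells in the islands below was not tested.

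H3K27me3 is placed by Polycomb repressive complex 2 and is bound by Polycomb repressive complex 1. It is best known from the CpG-rich promoters of developmental genes that a cell type keeps silent, where it often forms broad domains, and promoters that carry both H3K27me3 and the active promoter mark H3K4me3 are called bivalent. Gene deserts are long stretches without coding genes, and those beside developmental transcription factor genes are known to hold distant regulatory elements.

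The reference sequence of 6 members is shown, since it marks the extremes of what a CpG island criterion picked out in these islands. Each sequence is the 200 bp window with the highest ratio of observed to expected CpG within the island, from the plus strand of the RefSeq GRCm38.p6 genome, with CpG dinucleotides in capitals. The first 4 lay in members that overlapped an H3K4me3 peak in both cell types and met a stricter CpG island criterion (500 bp, GC of at least 55%, ratio of at least 0.65). They had the highest A2a H3K4me3 −log10 q-values among such members outside exons of coding genes on the autosomes searched. They were chosen after values had been seen. The last 2 had the highest CpG ratio of members outside exons of coding genes on these autosomes. The second of them tied with a member between Fn1 and Mreg.
Klf4–Gm26657, chr4:55651540-55651739: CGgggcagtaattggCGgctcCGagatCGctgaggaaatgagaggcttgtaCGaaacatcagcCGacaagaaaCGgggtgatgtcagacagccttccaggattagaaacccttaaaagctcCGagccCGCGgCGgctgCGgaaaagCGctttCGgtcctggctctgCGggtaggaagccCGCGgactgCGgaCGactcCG
Zfhx3, chr8:108695569-108695768: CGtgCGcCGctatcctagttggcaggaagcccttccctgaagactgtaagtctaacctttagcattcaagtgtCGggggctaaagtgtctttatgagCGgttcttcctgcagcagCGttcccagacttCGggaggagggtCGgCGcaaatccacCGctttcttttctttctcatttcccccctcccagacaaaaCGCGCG
Tenm3–Aga, chr8:50916079-50916278: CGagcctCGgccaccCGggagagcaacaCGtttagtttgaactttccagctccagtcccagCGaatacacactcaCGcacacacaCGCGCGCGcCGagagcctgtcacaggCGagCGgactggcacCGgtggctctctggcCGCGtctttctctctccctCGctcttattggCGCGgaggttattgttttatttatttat
Meis1, chr11:18870645-18870844: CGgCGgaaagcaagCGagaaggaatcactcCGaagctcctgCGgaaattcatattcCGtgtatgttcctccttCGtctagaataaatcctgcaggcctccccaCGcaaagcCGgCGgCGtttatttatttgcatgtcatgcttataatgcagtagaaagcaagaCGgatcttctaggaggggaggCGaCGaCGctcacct
Klf6–Pitrm1, chr13:6249264-6249463: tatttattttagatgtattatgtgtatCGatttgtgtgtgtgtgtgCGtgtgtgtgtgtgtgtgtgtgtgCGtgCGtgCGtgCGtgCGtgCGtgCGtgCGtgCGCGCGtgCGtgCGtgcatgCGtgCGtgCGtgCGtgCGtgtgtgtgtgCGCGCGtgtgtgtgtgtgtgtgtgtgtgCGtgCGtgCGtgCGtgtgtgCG
Saraf–Dusp4, chr8:34679316-34679515: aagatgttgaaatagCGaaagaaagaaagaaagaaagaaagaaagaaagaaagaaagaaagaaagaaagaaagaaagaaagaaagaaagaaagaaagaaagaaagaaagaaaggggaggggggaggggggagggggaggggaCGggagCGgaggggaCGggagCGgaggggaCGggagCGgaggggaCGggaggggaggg

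The 2 sets of windows differed in sequence. The windows from members with H3K4me3 had between 13 and 20 CpG dinucleotides in mixed sequence, with a GC content of 51.0% to 60% and a CpG ratio of 0.88 to 1.17. The Klf6–Pitrm1 window was a run of TG and CG dinucleotides with 28 CpG and a ratio of 2.19. The Saraf–Dusp4 window was a run of GA-rich repeats with 8 CpG and a ratio of 2.15.

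The Klf4–Gm26657 member, chr4:55651201-55654600, lay between annotated genes, 119 kb from the nearest coding 5′ end, on the side of Klf4, a zinc finger transcription factor gene. Its H3K4me3 fold enrichment was 11.0 in A2a and 9.79 in D1. It had 217 H3K27me3 reads over 3.4 kb in A2a, and its D1 partner had 439 reads over 13.2 kb. The Zfhx3 member, chr8:108693801-108703600, lay inside Zfhx3, a homeobox gene, with H3K27me3 reads of 1052 in A2a and 370 in the D1 partner. The Tenm3–Aga member, chr8:50913801-50919600, was 2070 kb from the nearest coding 5′ end, had 603 and 280 reads, and held the 5′ end of a noncoding gene. The Meis1 member, chr11:18865801-18883400, lay inside Meis1, a homeobox gene, with 2321 and 1403 reads over 17.6 and 16.2 kb. All 4 carried both marks in both lists, and which cells within each group of nuclei carry them cannot be told from pooled lists.

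How many islands were shared in the deserts was first set beside the rest of the A2a list. Of the 25556 autosomal A2a islands under 20 kb that lay at least 100 kb from coding 5′ ends, 51.2% (Wilson 95% interval 50.6 to 51.8) overlapped a D1 island and so became members. Over all 58463 autosomal A2a islands under 20 kb the share was 51.5%, so the overlap far from genes was close to that of the whole list. Of the 20764 D1 islands at the same distance and of the same length, 72.8% overlapped an A2a island. The overlap was used by the rule and is given as a description.

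Members were not scarce far from genes until the longest distances. The sequence at least 100 kb from coding 5′ ends added up to 1036 Mb without assembly gaps, 43.2% of the 2396 Mb of the autosomes, and held 12.6 members per Mb. Members covered 69.2 Mb, 6.68% of that sequence, and took 21.5% of all reads in A2a islands. Shared islands numbered 14.5 per Mb within 10 kb of coding 5′ ends, 11.8 per Mb from 10 to 100 kb, 15.4 per Mb from 100 to 250 kb, 13.3 per Mb from 250 to 500 kb and 7.5 per Mb at 500 kb or more. These are numbers of islands under 20 kb, and longer islands were not counted. By number, the 100 to 250 kb band was thus above the band within 10 kb, and the band beyond 500 kb was the lowest. Shared islands within 10 kb were longer, with a median of 5.4 kb, against 4.4 kb in the 100 to 250 kb band. The share of A2a islands that overlapped a D1 island went from 53.1% (52.2 to 53.9) in the 100 to 250 kb band to 45.0% (43.6 to 46.4) beyond 500 kb. The median member lay 236 kb from the nearest coding 5′ end, and the farthest lay 2435 kb away.

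**Figure D1:**
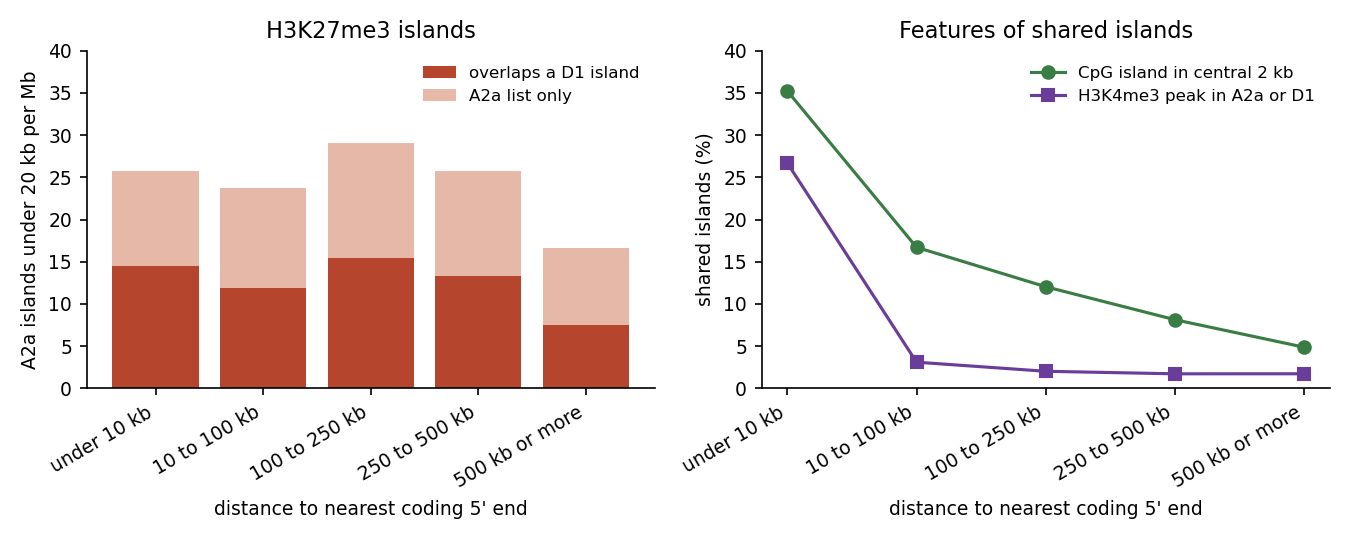
Left, A2a H3K27me3 islands under 20 kb per Mb of ungapped autosome (vertical axis) in 5 bands of distance to the nearest coding 5′ end, split by overlap with a D1 island. Right, the percent of shared islands in each band with a CpG island in the central 2 kb or an H3K4me3 peak in either list. Shared islands reached 15.4 per Mb at 100 to 250 kb, while CpG islands fell from 35.2% to 4.87% and H3K4me3 from 26.7% to 1.72% with distance.

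Members were short to moderate islands of middling density in both lists. Their length in A2a had a median of 4.2 kb (quartiles 2.8 and 6.6, range 0.6 to 19.8), with a median of 270 reads and 64.4 reads per kb (quartiles 57.9 and 73.1). Their D1 partners, each the D1 island sharing most bases with the member, had a median of 3.4 kb, 120 reads and 37.0 reads per kb. Over the whole lists the medians were 62.5 reads per kb in A2a and 37.2 in D1. Shared islands nearer than 100 kb to a coding 5′ end, 17024 in number, had 67.8 and 37.9 reads per kb, and the 12470 A2a islands at least 100 kb away without a D1 partner had 58.2 reads per kb. Desert islands with a D1 partner therefore stood above those without in A2a reads per kb, and below shared islands near genes. A2a reads and the D1 overlap entered the rule, so no test was made.

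A2a reads per kb exceeded those of the D1 partner in 13003 members (99.4%), and in 99.3% of all 30110 shared autosomal islands under 20 kb. The ratio had a median of 1.75 (quartiles 1.54 and 1.98). Since the A2a list as a whole held more reads per kb than the D1 list, this ratio says nothing of the members in particular. Across the 13086 members A2a and D1 reads per kb had a Spearman correlation of 0.36, given as a description over islands that share their libraries. A median of 70% of a member's length was covered by D1 islands, and 2319 members (17.7%) lay wholly inside them. The 13086 members had 12285 distinct D1 partners, and 1543 members shared their partner with another member, so neighbouring members are not independent regions.

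**Figure D2:**
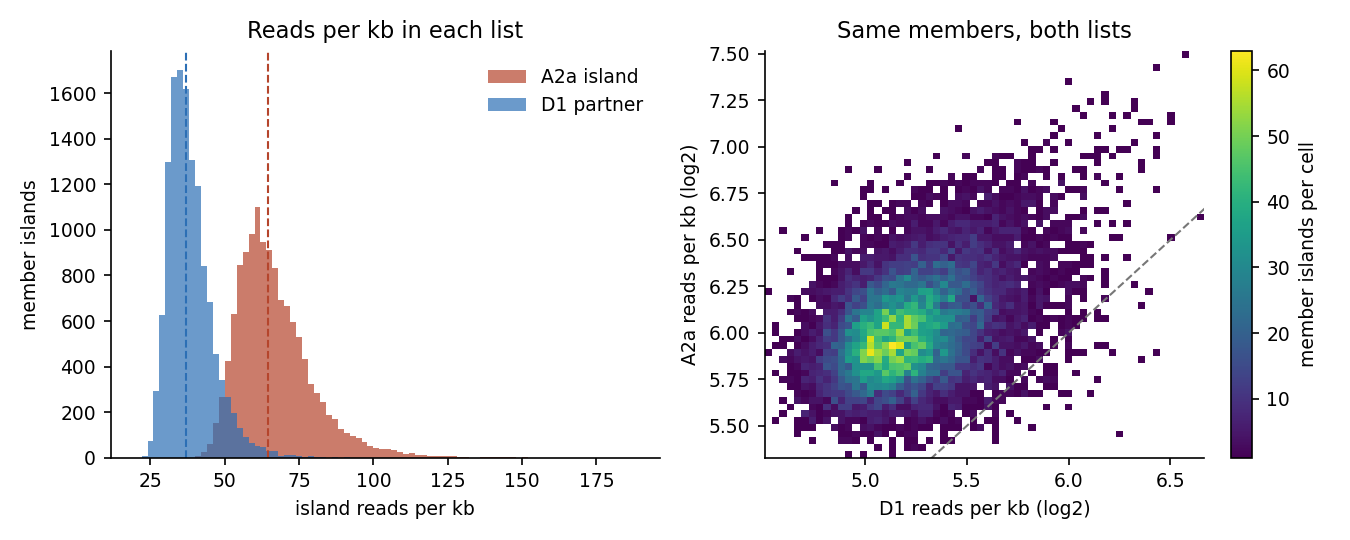
Left, histogram of reads per kb (horizontal axis) over the 13086 members for the A2a island and its D1 partner, with dashed lines at the medians of 64.4 and 37.0. Right, the same members as counts per cell of a grid of A2a against D1 reads per kb on log2 axes, with a dashed line of equality, which 13003 members lie above.

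Islands just inside and just outside each threshold of the rule had the following values. The member nearest to the distance limit lay 100.01 kb from a coding 5′ end and had 292 A2a and 132 D1 reads, and the nearest shared island on the other side lay 99.991 kb away with 286 and 94 reads. The longest members were 19.8 kb long, with 1713, 1469 and 1231 A2a reads, and 3 shared desert islands of 20 kb, with 2143, 1527 and 1239 A2a reads, were just outside. In all, 342 shared desert islands were 20 kb or longer. The smallest overlap with D1 was 200 bp, in 116 members, and 886 A2a islands of the deserts had no overlap but a D1 island within 1 kb.

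The 5 members with most A2a reads per kb lay beside or inside genes of developmental regulators or an adhesion receptor. The highest was chr3:130921401-130929600, between Rpl34 and Lef1, 181 kb from the nearest coding 5′ end, with 1502 reads over 8.2 kb (183 reads per kb) in A2a and 772 reads over 8.0 kb (96.5 reads per kb) in D1. Lef1 encodes a transcription factor of the Wnt pathway, and 2 lincRNA genes overlapped the island. The next was chr1:14497601-14513000, between Eya1 and Msc, with 2663 A2a reads (173 reads per kb) and 1229 D1 reads (86.5 reads per kb). Eya1 encodes a transcriptional coactivator of organ development, and Msc a basic helix-loop-helix factor.

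The other 3 showed the mark inside or beyond long genes. Inside Bnc2, a zinc finger gene, chr4:84535001-84550600 had 2534 A2a reads and a D1 partner of 35.0 kb with 2238 reads. Between Adgrl2 and Adgrl4, which encode adhesion G protein-coupled receptors, chr3:149516601-149526000 lay 526 kb from the nearest coding 5′ end and had 1445 A2a and 922 D1 reads. Inside Mecom, a zinc finger transcription factor gene, chr3:30002401-30022000 had 2968 A2a and 1407 D1 reads, the most A2a reads of any member. In the D1 list their partners stood at the 97.5 percentile or above by reads per kb. The Bnc2 and Adgrl2–Adgrl4 members overlapped H3K4me3 peaks in both lists, and the Mecom member in A2a only.

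The 5 members with most D1 reads in the partner were all pieces of a single D1 island. This D1 island, chr8:26752801-26844800, spanned 92.0 kb with 5918 reads between Thap1 and Zfp703, a zinc finger gene, and the 5 members were 168 to 189 kb from the nearest coding 5′ end. In A2a the same stretch was called as separate islands, of which the 5 members had 899, 201, 222, 122 and 721 reads over 1.8 to 12.6 kb. Their A2a reads per kb, from 65.3 to 76.7, were close to each other, so the pieces differed in length more than in density. None of the 5 overlapped an H3K4me3 peak.

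The 5 members farthest from coding 5′ ends lay together on chromosome 1 in the interval between Cntnap5b, a contactin-associated protein gene, and Cdh20, a cadherin gene. They were 2355 to 2435 kb from the nearest coding 5′ end. The farthest, chr1:102207801-102210400, had 165 A2a reads over 2.6 kb and 144 D1 reads over 4.0 kb. All 5 were small, from 2.0 to 4.2 kb with 136 to 232 A2a and 87 to 151 D1 reads, and none held a CpG island or H3K4me3. Only 386 members lay 1 Mb or more from coding 5′ ends.

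Distance from 5′ ends did not make every member intergenic. Inside the body of a protein-coding gene lay 2504 members (19.1%). The share was 18.0% of the A2a islands at least 100 kb away without a D1 partner. It was 32.6% of all autosomal A2a islands under 20 kb, which include islands near coding 5′ ends that the rule leaves out. Of the 2504 members, 1858 lay in introns only. A further check used the 5′ ends of all annotated transcripts of coding genes, coding or not, instead of 1 per gene. Such a 5′ end then lay in 127 members (0.97%), against 0.63% of far A2a islands without a D1 partner and 7.90% of all autosomal A2a islands under 20 kb. A distance of at least 100 kb was kept by 11022 members (84.2%), against 85.9% of far A2a islands without a D1 partner. No annotated gene of any kind was overlapped by 8642 members (66%). The share was 68.9% of far A2a islands without a D1 partner and 55.1% of all autosomal A2a islands under 20 kb. The 2504 members inside coding gene bodies are not in gene deserts as described above, and are members by the rule alone. In this report the deserts mean all sequence at least 100 kb from coding 5′ ends.

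Coding genes with members in their body numbered 413, with a median of 3 members each. By count, chosen after values had been seen, the leading gene was Sox5, which encodes a SoxD transcription factor, with 57 members in 954 kb and medians of 73.7 reads per kb in A2a and 39.9 in D1. It was followed by Pde4d, a cyclic AMP phosphodiesterase gene, with 51 members in 1504 kb, and Npas3, a neuronal basic helix-loop-helix factor gene, with 45 in 823 kb. Pard3b, a cell polarity gene, held 44 and Wwox, an oxidoreductase gene, 43. The medians of A2a reads per kb in these 5 genes ran from 58.2 in Pard3b to 73.7 in Sox5, on either side of the median of all members.

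Members were gathered in some intervals and missing from others. Between neighbouring coding 5′ ends there were 2514 intervals long enough to hold sequence 100 kb from both, and 1339 of them (53.3%) had a member, with a median of 5 and a range of 1 to 99. The 126 intervals with most members held 37.6% of all members in 17.7% of the sequence. The most members, 99, lay between Ttll7, a tubulin-modifying enzyme gene, and Adgrl2 on chromosome 3. Members there were 51.1 per Mb, with medians of 65.6 A2a and 36.3 D1 reads per kb, and none lay in a coding gene.

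The next 4 intervals differed in how the members were placed. Between Etnk1 and Sox5 on chromosome 6 there were 93 members (65.7 per Mb), of which 57 lay in Sox5 and 40 held a CpG island. Between Tmpo, a lamina-associated protein gene, and Nedd1, a centrosomal protein gene, on chromosome 10 there were 90 members (67.1 per Mb), none in a coding gene. Between Fat4, a giant cadherin gene, and Intu, a planar cell polarity gene, on chromosome 3 there were 78 members (54.0 per Mb). Between Zeb2, a zinc finger homeobox gene, and Acvr2a, an activin receptor gene, on chromosome 2 the 77 members were spread over 3.70 Mb (22.0 per Mb). The medians of these 4 intervals lay between 64.1 and 71.3 reads per kb in A2a and between 37.4 and 41.3 in D1, a narrower range than that of members per Mb.

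**Figure D3:**
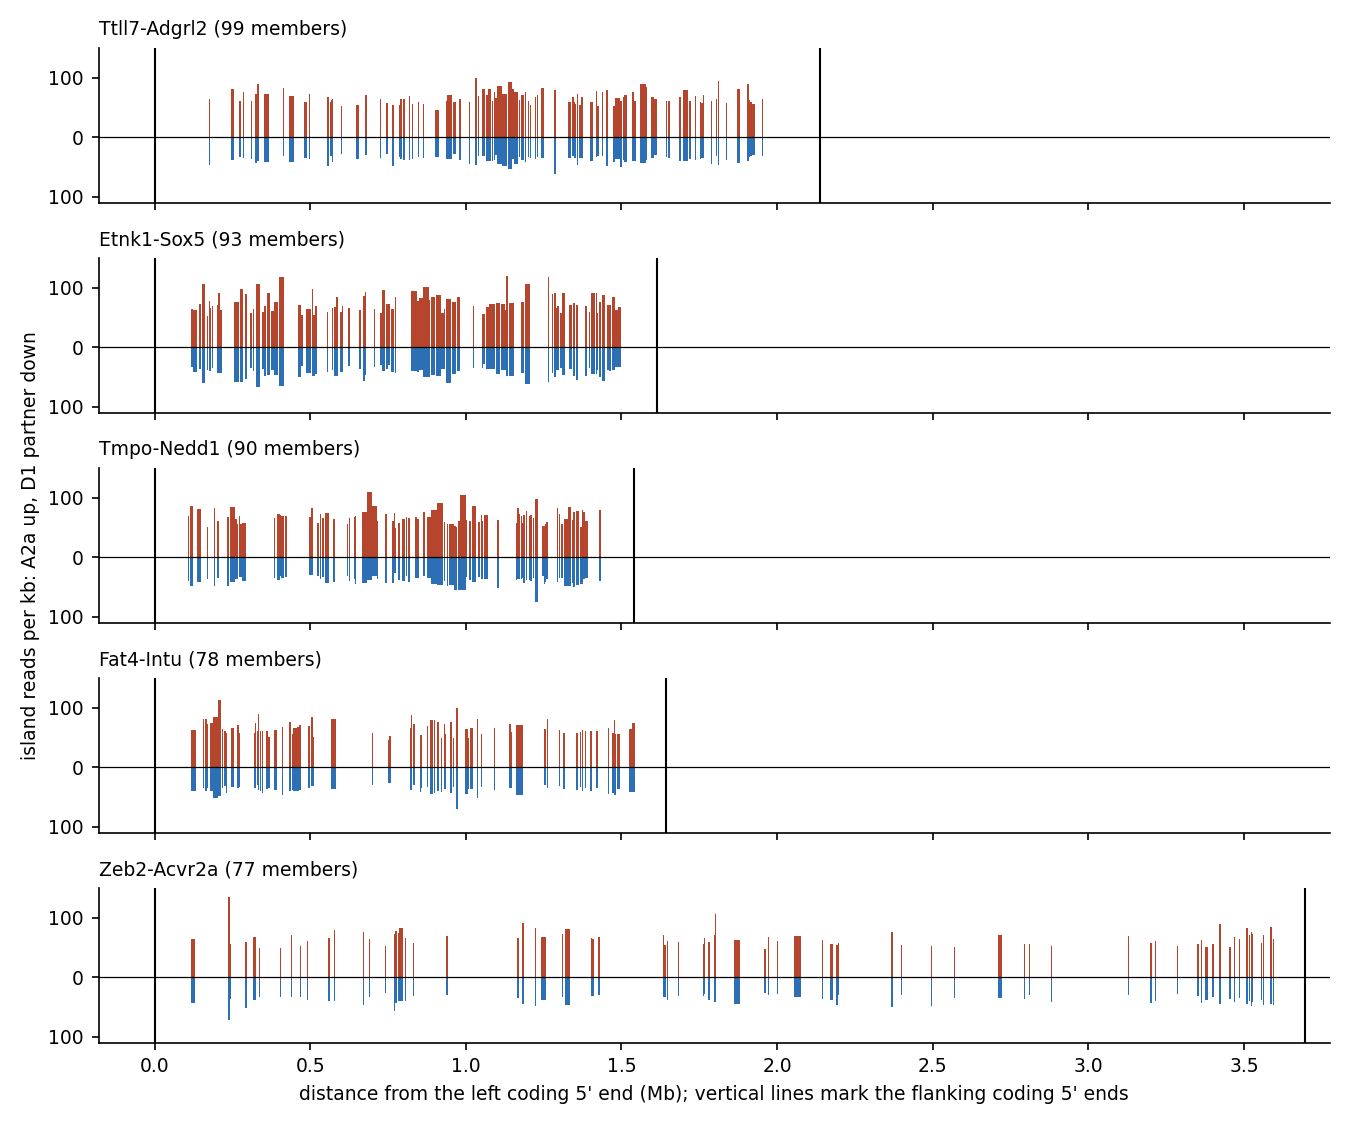
Members of the 5 intervals with most members, drawn at their distance from the left coding 5′ end in Mb (horizontal axis, vertical lines at the flanking 5′ ends), with A2a island reads per kb as bars upward and those of the D1 partner downward. Members filled the Etnk1–Sox5 and Tmpo–Nedd1 intervals at 65.7 and 67.1 per Mb and were sparser between Zeb2 and Acvr2a, at 22.0 per Mb, than in the other 4.

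Within the Tmpo–Nedd1 interval members lay over Rmst, a long noncoding RNA gene expressed in neural progenitors, and over the miRNA genes Mir135a-2 and Mir1251. The member at the 5′ end of Rmst, chr10:92162201-92181000, had 1974 A2a reads over 18.8 kb and a D1 partner of 34 kb with 1895 reads, and overlapped an H3K4me3 peak in both lists. The member over Mir135a-2, chr10:92070201-92087000, had 1331 A2a and 614 D1 reads, and that over Mir1251, chr10:92126601-92142200, had 865 and 161. Members overlapped 20 miRNA genes in all, and 9 of these genes had a mature sequence in the RefSeq table. The 5p products of the genes in this interval are shown with bases 2 to 8, the seed, in capitals, to show that they share no seed.
mmu-miR-135a-5p: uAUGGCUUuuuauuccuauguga
mmu-miR-1251-5p: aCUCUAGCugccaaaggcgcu

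Which genes stood at the edge of an interval went with the number of members. Where a flanking gene on either side belonged to a list of developmental transcription factor families, 148 of 188 intervals (78.7%) had a member and members numbered 23.6 per Mb. Over the other 2326 intervals, 51.2% had a member and members numbered 11.6 per Mb. The list was drawn by gene family and was not complete. Intervals beside Zeb2, Klf4, Bnc2, Mecom and Npas3 were not on it and were counted with the others. The flanked intervals thus held 15.7% of members in 8.43% of the sequence, a density 2.03 times that of the others. Among intervals of 700 kb or more the values were 95.2% of 63 and 22.7 per Mb, against 79.1% of 554 and 10.1 per Mb. With earlier results of these data known when the lists were written, these values are a description.

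Pooled over intervals, those beside listed adhesion, guidance, channel or receptor genes had fewer members per Mb. Where a cell adhesion or axon guidance gene flanked the interval, members numbered 9.03 per Mb, against 13.6 per Mb elsewhere. By interval the order was the opposite for this list, since 68.8% of 173 flanked intervals had a member, against 52.1% of 2341. The median density was 4.45 per Mb, against 2.05 per Mb. Among intervals of 700 kb or more this opposite order was not seen, with 79.5% of 112 flanked intervals, against 81.0% of 505. The median density there was 4.61 per Mb, against 7.42 per Mb. Where an ion channel or neurotransmitter receptor gene flanked the interval, members numbered 8.70 per Mb, against 12.9 per Mb elsewhere. Of 153 such intervals 49.0% had a member, against 53.5% of 2361. Interval length was not matched in any of these comparisons. The adhesion and guidance list had 212 Mb of far sequence in 173 intervals, and the transcription factor list 87.3 Mb in 188. The part of interval length in the densities was not tested. Some of the listed transcription factors, chosen after values had been seen, were as follows. Pou3f3, a POU domain gene, had 71 members on the side of Tmem182. Maf, a leucine zipper gene, had 62 on the side of Wwox and 42 on the side of Dynlrb2. Nr2f1, an orphan nuclear receptor gene, had 55 on the side of Arrdc3.

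**Figure D4:**
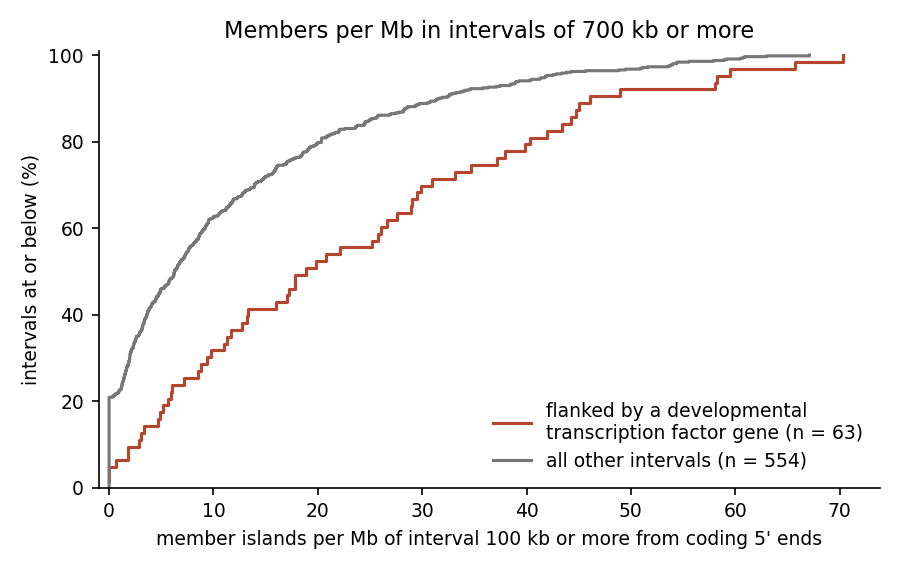
Cumulative percent of the intervals of at least 700 kb (vertical axis) by members per Mb of sequence at least 100 kb from coding 5′ ends (horizontal axis). Shown are 63 intervals flanked by a gene of the developmental transcription factor list and 554 others. The medians were 18.9 and 6.28 members per Mb, and the curve of the flanked intervals lies to the right throughout most of its length.

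Chromosomes differed in the number of members and little in their strength. Members per Mb of far sequence ran from 5.76 on chromosome 17 and 6.67 on chromosome 7 to 17.4 on chromosome 18 and 18.1 on chromosome 11. The medians of A2a reads per kb lay between 62.6 and 66.3 and those of D1 between 36.3 and 38.0 on all 19 chromosomes.

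Members also held 5′ ends of genes other than coding ones. Such a 5′ end lay in 665 members (5.08%), against 5.59% of all autosomal A2a islands under 20 kb, 8.39% of shared islands near coding 5′ ends and 3.15% of A2a islands far from them without a D1 partner. Per Mb of sequence such 5′ ends numbered 10.3 in members, 10.4 in A2a-only islands of the deserts and 8.95 in all far sequence. The most frequent kinds in members were lincRNA genes (314), processed pseudogenes (146) and transcripts that the annotation labels TEC (86). The 5′ ends of lincRNA genes numbered 4.54 per Mb of member sequence, 4.17 per Mb of A2a-only islands of the deserts and 1.94 per Mb of all far sequence. For miRNA genes the order was the other way, with 0.275 per Mb in members and 0.540 per Mb in far sequence.

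The islands with most A2a reads that held such a 5′ end lay in several cases near developmental genes. Mecomos, antisense to Mecom, started in the Mecom member described above. The 5′ ends of 4933429O19Rik and Gm534 lay in an island between Otx2, a homeobox gene, and Ap5m1, chr14:48878001-48896600, with 2358 A2a and 1390 D1 reads. That of 8430419K02Rik lay in the Meis1 member. Those of Gm10743 and Gm37505 lay in an island between Hmga2, an architectural chromatin protein gene, and Msrb3, with 2194 and 645 reads.

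The remaining ones showed how far the lists could differ in a shared island. 4930432J09Rik started in an island between Ednrb and Pou4f1, a POU domain gene, with 2003 A2a and 1153 D1 reads. D030045P18Rik and the miRNA gene Gm27410 started in an island between Hace1 and Grik2 with 1958 A2a reads over 17.4 kb, whose D1 partner had only 97 reads over 3.4 kb. The rule asks for an overlap of 1 bp, and such an island counts as shared as fully as that at the 5′ end of Rmst.

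H3K4me3, which the rule did not use, lay at few members, but at more per Mb than in all far sequence. It overlapped 245 members (1.87%) in either list, against 4.74% of all autosomal A2a islands under 20 kb, and 146 members (1.12%, 0.95 to 1.31) in both lists, against 3.48%. By list there were 237 members with an A2a peak, against 4.67% of all such islands, and 154 with a D1 peak, against 3.55%. Shared islands near coding 5′ ends overlapped H3K4me3 in both lists in 7.29% (6.91 to 7.69), and A2a-only islands of the deserts in 0.68% (0.55 to 0.84). The interval of the members overlaps neither. All autosomal A2a islands under 20 kb include those near coding 5′ ends, which the rule leaves out. Against the sequence of the deserts the order was the other way. Centres of A2a H3K4me3 peaks numbered 3.58 per Mb of member sequence, 2.69 per Mb of A2a-only islands of the deserts and 2.28 per Mb of all far sequence. Centres of D1 peaks numbered 2.24 per Mb of member sequence and 1.81 per Mb of all far sequence, with A2a-only islands between. Of the 245, 91 had a peak in A2a only and 8 in D1 only, from lists of 22551 A2a and 20080 D1 peaks.

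The members with H3K4me3 in both lists were longer, richer in CpG and more often at an annotated 5′ end. A CpG island by the common criterion (200 bp, GC of at least 50%, ratio of at least 0.6) lay in 102 of these 146 (69.9%, 62.0 to 76.7), against 19.6% (18.9 to 20.3) of the other 12940. The stricter criterion was met by 22.6% (16.6 to 30), against 0.43% (0.33 to 0.56). They held a noncoding 5′ end in 17.8% (12.5 to 24.8), against 4.94% (4.58 to 5.33). The 5′ end of another transcript of a coding gene, coding or not, lay in 23.3% (17.2 to 30.8), against 0.72% (0.59 to 0.88). Together, 57 of the 146 (39.0%) held an annotated 5′ end of some kind, and the other 89 did not. Their median length was 7.3 kb, against 4.2 kb, and a longer island has more room for each of these features. Their median reads per kb were 75.3 in A2a, against 64.3, and 40.8 in D1, against 37.0.

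The 5 of these with the highest A2a H3K4me3 −log10 q-value showed both kinds of place. Between Gbe1 and Robo1, which encodes a Slit receptor, chr16:72027001-72031200 overlapped no annotated gene, had 381 A2a and 142 D1 H3K27me3 reads, and H3K4me3 −log10 q-values of 168 in A2a and 78.3 in D1. Inside Cdh18, a cadherin gene, chr15:23035201-23039400 had 398 and 156 reads, −log10 q-values of 164 and 104, and no CpG island. The Klf4–Gm26657 member, whose sequence is printed above, was next, with 158 and 93.9.

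The last 2, like the Cdh18 member, overlapped exons of a coding gene. At Hs3st1, a heparan sulfate sulfotransferase gene, chr5:39642601-39649400 had 531 A2a and 261 D1 reads and −log10 q-values of 151 and 72.5. At Mcc, chr18:44653201-44672200 had 1723 and 822 reads and −log10 q-values of 150 and 69.7. By −log10 q the peaks of these 5 members stood at the 80.9 to 87.2 percentile of the A2a list and the 61.4 to 80.8 percentile of the D1 list. They were chosen by the A2a value, so the A2a rank follows from the choice.

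Members were richer in GC and CpG than far sequence as a whole, and poorer than shared islands near coding 5′ ends. In the central 2 kb the median GC content was 42.0% (quartiles 39.4 and 44.8), against 39.7% in 515408 tiles of 2 kb far from coding 5′ ends, 41.4% in A2a-only islands of the deserts and 44.7% in shared islands near coding 5′ ends. The median CpG ratio was 0.17 in members, 0.15 in the tiles and in A2a-only islands, and 0.20 in shared islands near coding 5′ ends. In the same order, the median number of CpG per kb was 7.5, 5.5, 6.5 and 10. A CpG island by the common criterion lay in the central 2 kb of 9.67% of members, against 14.6% of all autosomal A2a islands under 20 kb, 22.1% of shared islands near coding 5′ ends, 7.17% of tiles and 7.01% of A2a-only islands of the deserts. Anywhere in the island it lay in 2640 members (20.2%), against 24.0% of all autosomal A2a islands under 20 kb. The stricter criterion left 89 members (0.68%). Most members therefore had no CpG island by either criterion.

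The common criterion also took in simple repeats such as those printed above. The other 3 of the 5 members with the highest CpG ratio were chr1:71970801-71976200 between Fn1 and Mreg, chr5:60763801-60773400 between Pcdh7 and G6pd2, and chr17:75174801-75184200 inside Ltbp1, with ratios of 2.15, 2.06 and 2.06. None of the 5 overlapped an H3K4me3 peak. They had between 149 and 1153 A2a reads and between 52 and 747 D1 reads.

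**Figure D5:**
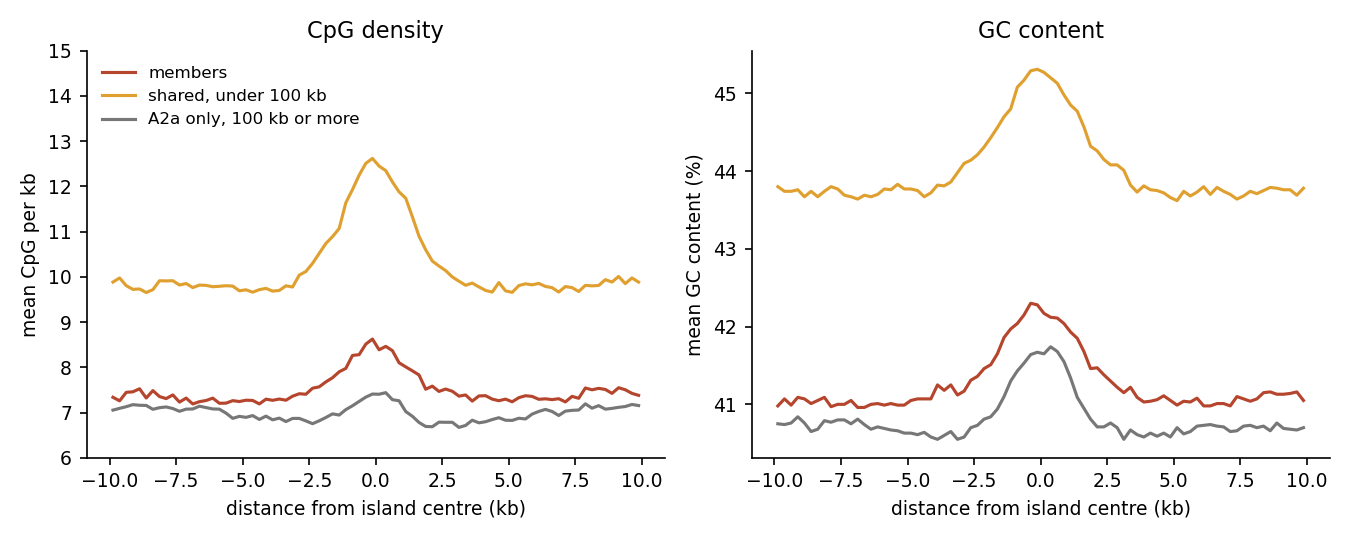
Mean CpG dinucleotides per kb (left) and mean GC content in percent (right) by distance from the island centre in kb, for the 13086 members, 17024 shared islands under 100 kb from a coding 5′ end, and 12470 A2a-only islands at 100 kb or more. All 3 groups peaked at the centre, the members between the other groups on both axes.

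Repeats and short motifs were counted in the central 2 kb. Soft-masked repeat sequence made up a median of 16.1% in members, 17.4% in A2a-only islands of the deserts, 16.8% in shared islands near coding 5′ ends and 26.4% in the tiles. The authors kept only reads with a mapping quality of at least 20, which removes reads from near-identical repeats, and the part of this in the difference was not tested. The motif CGCG was in 15.5% of members, 12% of A2a-only islands, 26.9% of shared islands near coding 5′ ends and 10.9% of tiles. In the same order, CAGCTG was in 58.4%, 56.1%, 63.2% and 45.5%, and TAATTA in 52.3%, 52.2%, 42.4% and 56.7%. For CGCG and TAATTA members were thus closer to the tiles than to shared islands near coding 5′ ends, and for CAGCTG closer to the islands.

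These 3 motifs read the same on both strands and none contains another. The dinucleotide CA repeated 5 times, searched on both strands, was in 27.2% of members, 30.3% of shared islands near coding 5′ ends and 27.9% of tiles, and GA repeated 5 times in 18.0%, 18.0% and 14.7%. TAATTA is an AT-rich core that many homeodomain proteins bind and CAGCTG an E-box. The part of GC content in the shares of these motifs was not tested. Across members GC content had a Spearman correlation of 0.21 with A2a and 0.09 with D1 reads per kb, and of −0.30 with distance from coding 5′ ends, as a description over islands that share their libraries.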

How the data were processed

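CnR reads were mapped by the authors to mm10 with Bowtie2 (version 2.1.0), filtered at a mapping quality of 20 and restricted to inserts of 150 to 500 bp. For H3K27me3 the authors ran SICER on pooled replicates (window 200 bp, gap 600 bp, false discovery rate 0.01), and each deposited island carries its raw read count. The control library of this call is not given in the sources used here. For H3K4me3 the authors ran MACS2 (q-value 0.01), and each deposited peak carries its fold enrichment, a ratio to local background, and its −log10 q-value. Library totals are not known from the lists, so depth per sample is unknown and reads per kb were not normalized between lists.

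Overlaps, distances and sequence features were computed with Python 3.11.15, numpy 2.4.6, pandas 2.3.3 and scipy 1.17.1, from GENCODE vM21 and the RefSeq GRCm38.p6 genome, and the functions gave 0 mismatches to direct counting on simulated data. An island counted as overlapping at 1 bp or more. The D1 partner was the D1 island that shared the most bases with the member. Only for the D1 median with islands of at least 2 kb was it the overlapping island with most reads. Shares have Wilson intervals at the 95% level, and no test was made. CpG island windows were 200 bp.

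Named members were the 5 with most A2a reads per kb, most D1 reads, greatest distance, highest CpG ratio and, among those with H3K4me3 in both lists, highest A2a −log10 q-value, and the ones at each threshold. Named intervals were the 5 with most members, and named noncoding genes the first 10 by A2a reads. The members and lists were chosen with earlier results of these data known. Alternatives for the distance, overlap, length and peak thresholds were computed. Other antibodies, controls and N2a cells were not analysed here.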

Additional observations from a re-analysis of the deposited data

How the results depend on the processing

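No paired analysis was possible because each list pools both replicates, and for the same reason no replicate could be left out. Of 39 alternatives, 21 left a count within 1.5 times or a share or median within its 95% interval, and 18 did not. The 13086 members became 7700 at 200 kb from coding 5′ ends, 2993 with 5′ ends of genes of every biotype and 6322 when islands within 5 kb were merged first. The share in coding gene bodies became 14.5% at 200 kb and 19.9% with islands of at least 2 kb, and the share with H3K4me3 in either list became 1.64% at 200 kb. The share with a CpG island became 15.4% at 200 kb, 20.9% with overlap of 50% of the shorter island, 22.2% with islands of at least 2 kb and 0.680% with 500 bp windows, so it depends most on the criterion. The share with a gene 5′ end became 5.63% with islands of at least 2 kb and 8.25% within 2 kb. Median reads per kb in A2a became 63.8 at 200 kb, 65.0 with overlap of 50% of the shorter island and 68.5 as total reads over total length, and in D1 37.3 with that overlap, 36.4 with islands of at least 2 kb and 39.4 as total reads over total length. The share of members in intervals flanked by a listed developmental transcription factor gene stayed between 15.5% and 16.3% under 4 alternatives chosen after seeing the data. One of these left out the 5 intervals with most members.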

Other observations

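Some long intervals held almost no H3K27me3 island in either list. Of 617 intervals of at least 700 kb, 119 had no member. The 10 longest of these, chosen after values had been seen, ran from 2.21 to 2.82 Mb and held between 0 and 7 A2a islands and between 0 and 10 D1 islands at least 100 kb from coding 5′ ends. The interval between Lsamp, a neuronal cell adhesion gene, and Gap43, a growth cone protein gene, had none in either list, and neither did that between Cadm2, another neuronal adhesion gene, and Speer2. Between Cntnap2, a contactin-associated protein gene, and Cul1 there was 1 in each. Between Snrpn and Ndn, imprinted genes, there were 0 in A2a and 1 in D1. Between Ankrd7 and Kcnd2, a potassium channel gene, 7 A2a and 10 D1 islands were called and none of the A2a islands met the rule.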
